A study of Mus musculus with 3 samples.

Results

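The genes described here are the transporters that carry sodium, chloride, phosphate, sulfate, bicarbonate and calcium along the nephron. They were taken as every gene whose symbol begins with Slc4a, Slc8a, Slc9a, Slc12a, Slc13a, Slc20a, Slc26a, Slc34a or Scnn1, which gave 59 genes of the 27998 in the deposited matrices. Of these, 4 pass by their symbol and are not transporters: Slc9a3r1 and Slc9a3r2 encode the NHERF scaffold proteins, Slc4a1ap encodes kanadaptin, and Slc13a2os is an antisense transcript of Slc13a2. Kidneys were profiled by droplet single-cell RNA sequencing 14 days after folic acid, which injures the tubules. The mice were 6 to 8 weeks old. The 2 Aoah-/- mice (mouse 2 and mouse 3) lack acyloxyacyl hydrolase, the enzyme that removes secondary fatty acyl chains from lipopolysaccharide, and the line had been backcrossed to C57/BL6J. The comparison animal was 1 littermate WT mouse (mouse 3). Each mouse gave 1 library, every mouse had received folic acid and no uninjured kidney was in the set, so levels cannot be set against a healthy baseline and the spread between WT mice was not measured. Aoah itself was lower but not absent in the Aoah-/- libraries, at 14.7 and 12.1 CPM (counts-per-million, the UMIs of a gene scaled to all UMIs of the class) against 27.9 in S1/S2-like proximal cells, and at 13.1 and 13.6 against 30.1 in S3-like cells.

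The nephron reclaims filtered salt in steps, and each step uses its own carrier. In the proximal tubule, NaPi-IIa (Slc34a1) and NaPi-IIc (Slc34a3) take up phosphate, NaS1 (Slc13a1) takes up sulfate, and NBCe1 (Slc4a4) returns bicarbonate to the blood. The thick ascending limb (TAL) uses NKCC2 (Slc12a1), the target of loop diuretics, and the distal convoluted tubule (DCT) uses NCC (Slc12a3), the target of thiazides. The connecting tubule (CNT) and principal cells (PC) of the collecting duct absorb sodium through ENaC (Scnn1a, Scnn1b, Scnn1g), and intercalated cells (IC) exchange chloride for bicarbonate through AE1 (Slc4a1, type A) or pendrin (Slc26a4, type B).

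The stretches before the start sites of the 4 transporters that mark the main steps are shown because each gene was the most abundant member in its own class below (S1/S2-like proximal, TAL-like, DCT-like and type B intercalated cells). They are RefSeq sequences on GRCm38.p6, 5′ to 3′ on the gene's strand, cut where the outermost GENCODE M21 start of the gene falls inside the window. None overlaps an annotated exon, but the stretch of Slc34a1 lies in an intron of a longer GENCODE transcript, which starts further upstream, at 55398187. Capitals mark the motif letters searched for on both strands: GTTAAT (HNF1), TGTTTAC (forkhead), TATAAA and TCAAGGTCA (extended nuclear receptor site).
Slc34a1, chr13:55399398-55399647, plus strand: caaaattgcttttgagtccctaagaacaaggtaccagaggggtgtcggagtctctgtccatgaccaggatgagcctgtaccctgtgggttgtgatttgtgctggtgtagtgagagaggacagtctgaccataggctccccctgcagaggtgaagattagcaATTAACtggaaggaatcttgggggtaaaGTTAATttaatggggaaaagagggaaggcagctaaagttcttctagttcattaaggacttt
Slc12a1, chr2:125152350-125152504, plus strand: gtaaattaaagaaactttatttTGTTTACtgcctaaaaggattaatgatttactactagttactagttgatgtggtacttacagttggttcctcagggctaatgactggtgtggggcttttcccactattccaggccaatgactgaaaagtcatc
Slc12a3, chr8:94328958-94329200, plus strand: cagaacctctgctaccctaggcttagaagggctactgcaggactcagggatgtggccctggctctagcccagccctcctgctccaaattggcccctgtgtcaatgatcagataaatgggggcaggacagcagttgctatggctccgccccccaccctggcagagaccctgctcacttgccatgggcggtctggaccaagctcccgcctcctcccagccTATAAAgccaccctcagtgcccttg
Slc26a4, chr12:31559985-31560234, minus strand: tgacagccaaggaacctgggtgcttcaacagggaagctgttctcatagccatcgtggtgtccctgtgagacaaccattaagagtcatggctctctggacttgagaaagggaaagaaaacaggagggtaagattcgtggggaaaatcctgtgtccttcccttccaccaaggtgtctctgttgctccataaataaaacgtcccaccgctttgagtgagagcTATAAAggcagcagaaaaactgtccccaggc

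Slc34a1 held the HNF1 letters on both strands, 61 and 89 bases before its start site, and 3 of the 44 members with a RefSeq window held them, against 7.1% of all 32851 windows of 300 bases (250 before and 50 after the start). All distances here are counted from the RefSeq start site of a window, not from the GENCODE start. The forkhead letters lay 228 bases before the RefSeq start of Slc12a1, and were in 2 of 44 member windows against 3.65% of all. TATAAA lay 32 bases before the RefSeq start of Slc12a3 and 31 before that of Slc26a4, and was in 11 of 44 against 13.6% of all. No member window held TCAAGGTCA, which was in 0.423% of all. These are matches of letters, and no binding was measured. The genes themselves span chr13:55398187-55415592 (Slc34a1), chr2:125152505-125230002 (Slc12a1), chr8:94329201-94366214 (Slc12a3) and chr12:31519827-31559969 (Slc26a4) in GENCODE M21. These GENCODE starts differ from the RefSeq starts used for the distances.

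The 3 libraries held 158551992 to 167222984 UMIs over 73281 barcodes, of which 59262 passed the filters on genes and mitochondrial UMIs. The deposited barcodes of Aoah-/- mouse 3 started at 1672 UMIs, and those of Aoah-/- mouse 2 and WT at 500. Below 1672 UMIs lay 23.8% of the barcodes of Aoah-/- mouse 2 and 25.2% of those of WT. The part of this unequal cut in the cell numbers, class shares and median UMIs below was not tested. Clustering without the 59 transporters gave 12 nephron classes, named by markers that also excluded them. A further 13 clusters of proximal or distal cells could not be named and were left out, and they held 953, 4295 and 2508 cells of Aoah-/- mouse 2, Aoah-/- mouse 3 and WT. The largest of them were uneven, with 2060 cells of Aoah-/- mouse 3 in 1 proximal and 1383 in 1 distal cluster and 2034 cells of the WT mouse in another proximal cluster. All values below are given in the order Aoah-/- mouse 2, Aoah-/- mouse 3, WT, and in that order the nephron classes held 10313, 6728 and 8948 cells. Proximal cells formed an S1/S2-like, an S3-like and an injured class, and a further proximal class whose segment the markers did not decide. The S1/S2 list summed to 4460, 4606 and 4032 CPM in S1/S2-like and to 3262, 3261 and 2864 in S3-like cells. Of its genes, Slc22a6 and Cyp2e1 were highest in S3-like cells. The S3 list summed to 1702, 2209 and 2094 CPM in S3-like and to 282, 360 and 519 in S1/S2-like cells. Of that list, Cyp7b1, Acsm3, Slc7a12 and Serpina1f were highest outside the S3-like class. The injured class was led by injury genes and kept proximal markers. Cells led by injury genes with TAL markers, or with CNT and PC markers, were kept apart from the TAL-like, DCT-like, CNT-like, PC-like, type A IC-like (IC-A) and type B IC-like (IC-B) classes. The DCT marker list summed highest in the CNT-like class. Of its 6 genes, Calb1, which is also on the CNT list, Trpm6 and Sgms2 were highest there. Pvalb, Emx1 and Tmem52b were highest in the DCT-like class. Against all other cells the DCT-like cluster scored best on the TAL list, which summed there to 7386, 9607 and 7666 CPM against 4278, 5681 and 4116 for the DCT list, and it was named because the DCT list stood out most against the other distal clusters. The injured proximal list summed higher in the injury-led TAL class than in the injured proximal class. In the S1/S2-like class the median cell of Aoah-/- mouse 2 held 2122 UMIs, against 7129 and 6361 in the other libraries. Of its 4906, 2247 and 3105 cells, a cluster led by Saa3 and Spp2 held 2954, 633 and 1006, and a cluster led by Fosb, Jun and Dusp1 held 1107, 875 and 1725. Cells with a UMI of a leukocyte gene made up 42.2% to 69.7% of a nephron class in the Aoah-/- libraries and 15.1% to 48.3% in the WT library. From 109 to 117 kept barcodes were shared between any pair of libraries.

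Of the 59 members, 33 reached 20 CPM in the mean of the 3 libraries in a nephron class, 15 reached 100 and 5 reached 1000. Those 5 were Slc12a1 in the TAL, Slc34a1 and Slc4a4 in the proximal tubule, Slc12a3 in the DCT and Slc26a4 in type B cells. Counts of 3′ tags do not scale with transcript length, so levels of different genes were set side by side without a length correction. Of the 33, 23 had the same highest class in all 3 libraries. Together the members made up 0.762%, 0.849% and 0.765% of all UMIs in S1/S2-like cells and 0.673%, 0.7% and 0.61% in TAL-like cells. In IC-A-like cells they made up 0.189%, 0.198% and 0.204%.

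**Figure D1:**
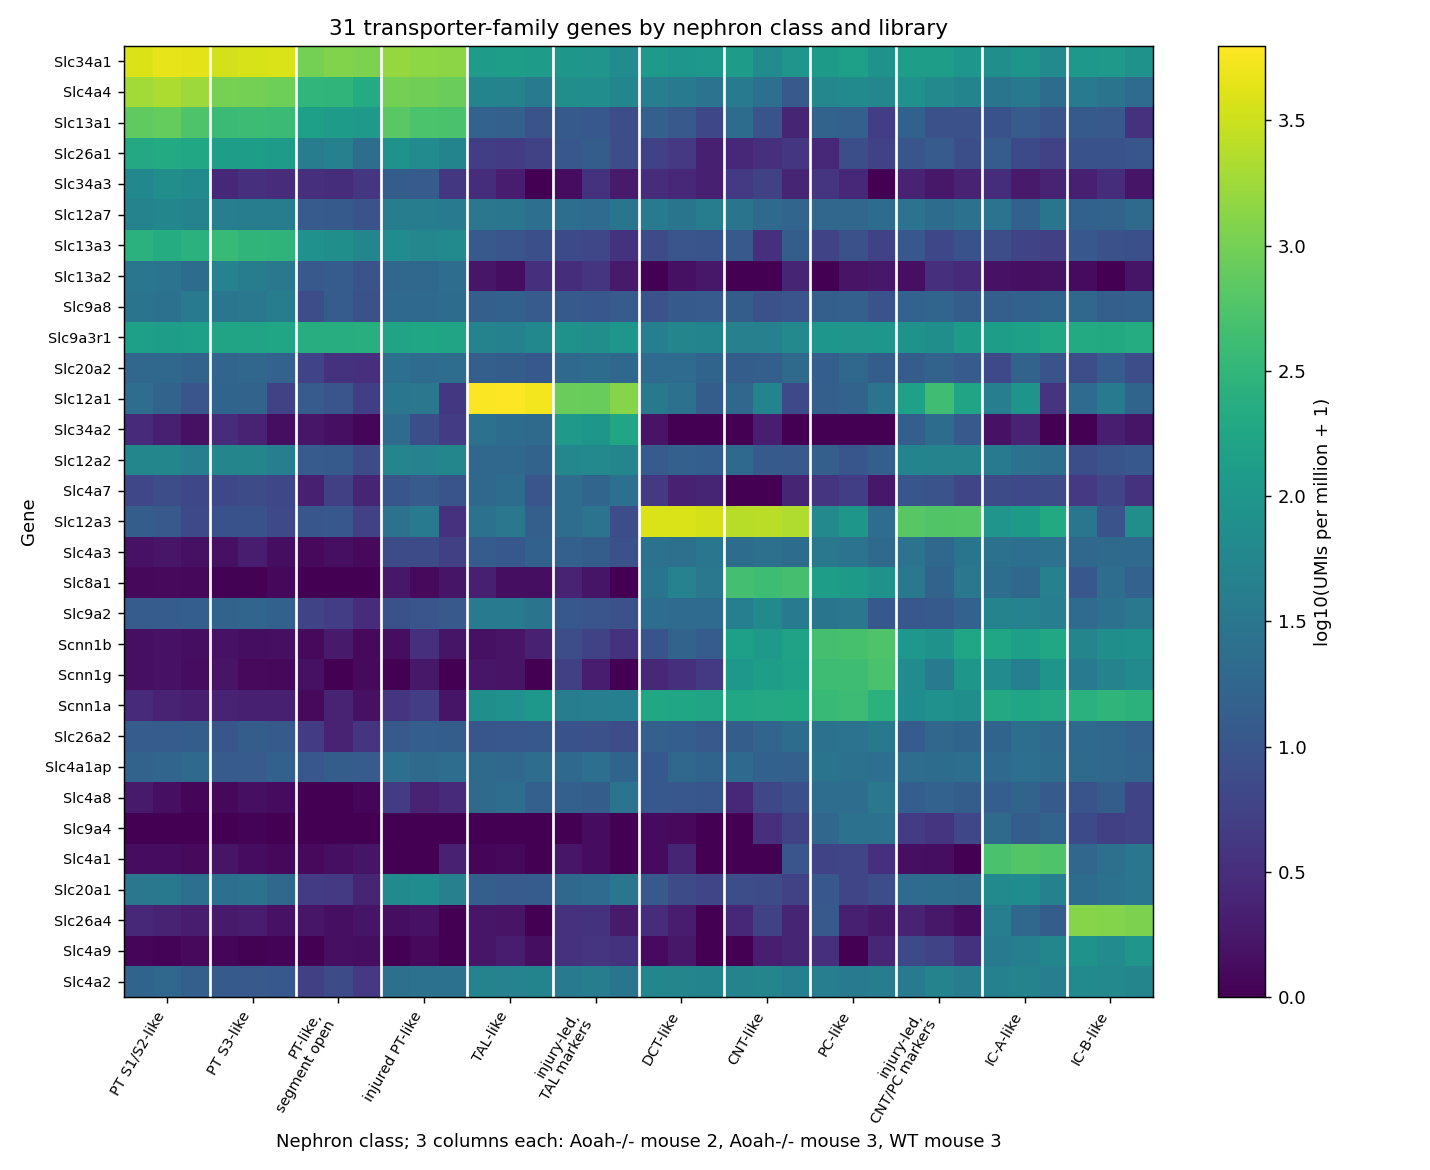
Levels of 31 of the 33 members that reached 20 CPM, as log10 of CPM plus 1, in the 12 nephron classes (columns, each with its 3 libraries side by side). Slc34a1 and Slc4a4 are brightest in the proximal classes, Slc12a1 in the TAL-like class, Slc12a3 in the DCT-like and CNT-like classes, and Slc26a4 in the IC-B-like class. Brighter colors are higher levels.

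In the proximal tubule, phosphate, sulfate and bicarbonate carriers were the most abundant members, and most of them were higher in S1/S2-like than in S3-like cells. Slc34a1 stood at 3949, 4533 and 4351 CPM in S1/S2-like cells and at 3466, 3722 and 3770 in S3-like cells. Its lowest S1/S2-like library lay above its highest S3-like library by a small margin. Slc4a4 stood at 1859, 2107 and 1723 CPM in S1/S2-like cells and at 1050, 999.5 and 909 in S3-like cells, with no overlap. Slc13a1 stood at 737, 799.7 and 556 CPM in S1/S2-like and at 382, 400.4 and 383 in S3-like cells. All 3 libraries thus placed the sulfate carrier higher in S1/S2-like cells. Slc26a1 (SAT1), which moves sulfate across the basolateral membrane, stood at 197, 207 and 187 CPM in S1/S2-like cells and at 129, 129 and 121 in S3-like cells.

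The sharpest split within the proximal tubule was that of Slc34a3. It stood at 59.1, 73.4 and 65.4 CPM in S1/S2-like cells and at 1.65, 2.27 and 2 in S3-like cells, 32.4- to 35.8-fold lower across the libraries. A class difference was counted where all 3 libraries differed at least 2-fold the same way, with at least 20 CPM in either class. By this rule Slc34a3 was the only member of 13 that was lower in S3-like cells, where 2.84% of all genes were, and no member was higher, where 2.27% were. Slc13a3 (NaDC3) and Slc13a2 (NaDC1), carriers of dicarboxylates such as citrate, leaned the other way. Slc13a3 stood at 267, 222 and 264 CPM in S1/S2-like and at 358, 308 and 294 in S3-like cells. Slc13a2 stood at 30.3, 27.1 and 21.2 CPM in S1/S2-like and at 46.6, 38.6 and 32.2 in S3-like cells. Both were highest in S3-like cells in every library, by less than 2-fold.

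Several members with broader roles were also highest in proximal cells. Slc12a7 (KCC4), a potassium-chloride cotransporter, stood at 49.2, 53.8 and 49.1 CPM in S1/S2-like cells and at 41.1, 39.8 and 38.8 in S3-like cells. Slc9a8, a sodium/hydrogen exchanger of intracellular membranes, stood at 30.1, 32.3 and 38.5 CPM in S3-like and at 28.2, 25.6 and 34.2 in S1/S2-like cells. The scaffold Slc9a3r1 (NHERF1), which holds phosphate carriers at the brush border, was spread over all 12 classes. It stood at 231, 228 and 242 CPM in the proximal class of open segment, at 206, 202 and 223 in IC-B-like cells and at 165, 162 and 171 in S3-like cells. The housekeeping phosphate carriers Slc20a1 (PiT1) and Slc20a2 (PiT2) were low by comparison, with Slc20a1 at 31.6, 33.6 and 23.1 CPM and Slc20a2 at 17, 18.5 and 15.3 in S1/S2-like cells.

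Textbook proximal carriers were not all well detected. Slc9a3 (NHE3), the main apical sodium/hydrogen exchanger of the proximal tubule, stood at 2.57, 4.27 and 5.47 CPM in S1/S2-like cells and at 4.56, 6.29 and 9.96 in TAL-like cells. Those levels rested on at most 143 UMIs per library in S1/S2-like and 32 in TAL-like cells. Slc26a6, an apical chloride and oxalate exchanger, stood at 6.73, 7.15 and 4.05 CPM in S1/S2-like cells. Slc26a7, a chloride and bicarbonate exchanger of type A cells, stood at 3.2, 3.57 and 2.31 CPM in IC-A-like cells, from 6, 8 and 5 UMIs. Exact Poisson 95% intervals for these 3 Slc26a7 levels ran from 1.18 to 6.97, 1.54 to 7.04 and 0.751 to 5.39 CPM and covered counting error only.

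**Figure D2:**
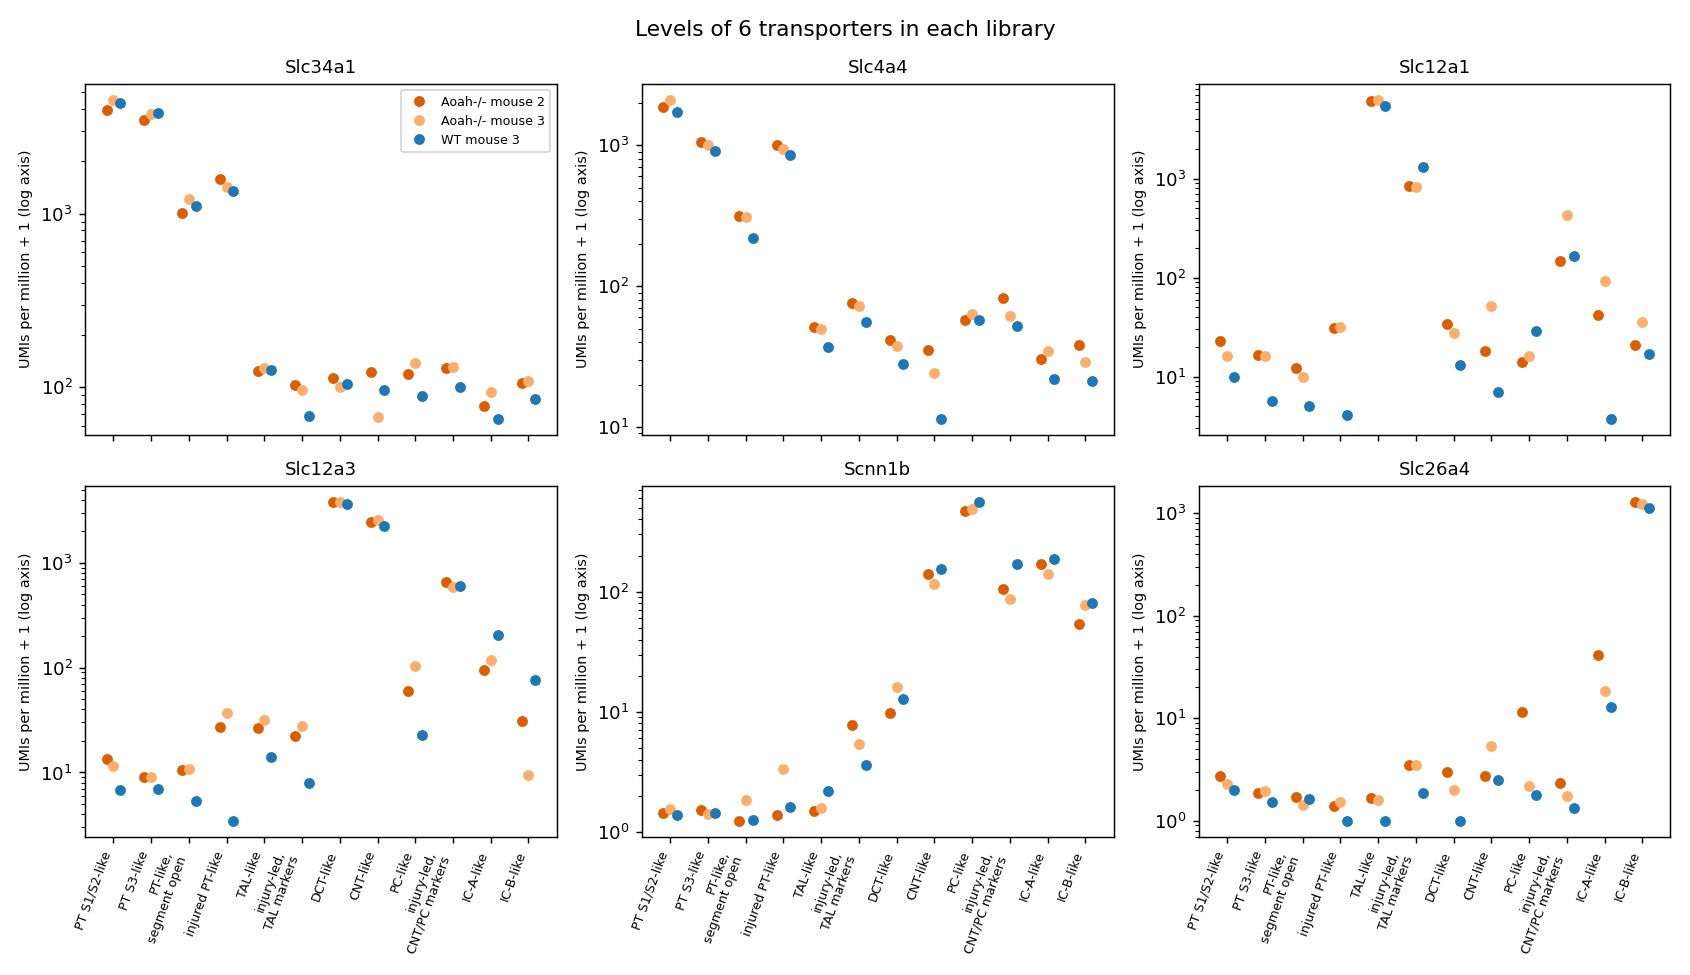
Levels of Slc34a1, Slc4a4, Slc12a1, Slc12a3, Scnn1b and Slc26a4 in the 12 nephron classes, in CPM plus 1 on a log axis. Each point is 1 library, and the points of a class lie close together for each gene where it is highest, for example 5407 to 6276 CPM for Slc12a1 in the TAL-like class.

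In the TAL-like class Slc12a1 was the most abundant member of any class, at 6003, 6276 and 5407 CPM. Outside both TAL classes it ranged from 2.77 CPM in IC-A-like cells of the WT mouse to 423.8 in the injury-led CNT/PC class of Aoah-/- mouse 3. Slc9a2 (NHE2), an apical sodium/hydrogen exchanger, stood at 33.9, 34.4 and 27.9 CPM in TAL-like cells and was higher in every library in CNT-like cells, at 43, 62.6 and 37.4, and in IC-A-like cells, at 49.1, 46.9 and 40.7. Its CNT-like and IC-A-like ranges overlapped. Slc4a7 (NBCn1), a sodium bicarbonate cotransporter, stayed near 20 CPM, at 21.8, 16.5 and 23.6 in the injury-led TAL class, below its level of 44.2, 41 and 32.3 in T lymphocyte-like cells. Slc4a2 (AE2), a basolateral anion exchanger, was spread over TAL-like (49.1, 47.8 and 50.6 CPM), DCT-like (54.4, 51.9 and 50.3) and IC-B-like cells (64.1, 60.8 and 53.1).

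From the DCT to the collecting duct, NCC gave way to the calcium exchanger and to ENaC. Slc12a3 stood at 3786, 3815 and 3602 CPM in DCT-like cells and at 2437, 2567 and 2230 in CNT-like cells, and the range did not overlap. In PC-like cells it was 25.2- to 103.2-fold lower than in CNT-like cells, at 59.4, 102 and 21.6 CPM. Slc8a1 (NCX1), which extrudes calcium, stood at 464, 418 and 478 CPM in CNT-like cells, at 130, 116 and 88.8 in PC-like cells and at 29.4, 47 and 31.8 in DCT-like cells. The CNT-like class thus held the most Slc8a1, 8.89- to 15.8-fold over the DCT-like class.

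The ENaC subunits did not share a single pattern. Scnn1b stood at 472, 489.7 and 559.6 CPM in PC-like, at 139, 114 and 153 in CNT-like and at 8.84, 15 and 11.7 in DCT-like cells. Scnn1g stood at 419.7, 409 and 504 CPM in PC-like, at 105, 134 and 149.7 in CNT-like and at 1.71, 2.22 and 3.41 in DCT-like cells. Both were thus 3.05- to 4.29-fold higher in PC-like than in CNT-like cells, and lowest of these 3 classes in DCT-like cells. Scnn1a, the pore subunit that the others join, extended further upstream, at 356, 405 and 269 CPM in PC-like, 181, 193 and 201 in CNT-like, 180.4, 169.9 and 164 in DCT-like and 76.4, 81 and 105 in TAL-like cells. It was also at 264, 299.6 and 277 CPM in IC-B-like cells, which overlapped its range in PC-like cells. Scnn1b reached 170.2, 141 and 185 CPM in IC-A-like cells. The PC marker list summed to 1280, 862 and 1431 CPM in IC-A-like and to 883, 1201 and 1432 in IC-B-like cells. The part of PC RNA in these ENaC levels was not tested.

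Counted by the 2-fold rule, 3 of 13 members were higher in CNT-like than in DCT-like cells (Scnn1b, Scnn1g and Slc8a1), where 1.43% of all genes were, and 0 were lower, where 2.53% were. From CNT-like to PC-like cells 5 of 18 members were higher, among them Scnn1b, Scnn1g, Slc4a8 and Slc9a4, against 9.8% of all genes, and 2 were lower (Slc12a3 and Slc8a1) against 1.87%. Among the smaller members, Slc4a8 (NDCBE), a sodium-driven chloride bicarbonate exchanger, stood at 22, 21.8 and 30.9 CPM in PC-like cells. Slc9a4 (NHE4) stood there at 17.1, 25.3 and 24.7 CPM, from 31, 43 and 32 UMIs. The sulfate carrier Slc26a2 stood at 26.4, 27.1 and 33.2 CPM and kanadaptin, Slc4a1ap, at 27.5, 25.3 and 23.1 in PC-like cells, both near or below their levels in lymphocyte-like cells. Slc4a3 (AE3) lay at 25.9, 24.6 and 29.9 CPM in DCT-like cells and at 32.5, 26.5 and 19.3 in PC-like cells, which overlapped.

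The intercalated cells divided along their anion exchangers. Slc4a1 stood at 512, 608 and 573 CPM in IC-A-like cells and at 16.9, 24.1 and 29.7 in IC-B-like cells, 19.3- to 30.3-fold lower. Slc26a4 showed the opposite split, at 1293, 1224 and 1126 CPM in IC-B-like and 40.5, 17.4 and 12 in IC-A-like cells, 31.9- to 93.6-fold apart. Slc4a9 (AE4), a basolateral exchanger of type B cells, leaned the same way as Slc26a4, at 88.6, 66.8 and 93.5 CPM in IC-B-like and 35.8, 42.9 and 55 in IC-A-like cells. Only 1 of 20 members was past 2-fold higher in IC-B-like cells, Slc26a4, where 1.31% of all genes were, and 3 were lower (Slc4a1, Slc12a2 and Slc12a3), where 1.37% were. Slc12a2 (NKCC1), the basolateral relative of NKCC2, stood at 35.2, 25 and 22.2 CPM in IC-A-like and at 7.29, 8.74 and 10.1 in IC-B-like cells. Slc4a1 also marks red cells, where the erythroid-like class held 38.4, 13.5 and 44 CPM.

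The other 26 members stayed below 20 CPM in every nephron class. Of these, 17 lay between 1 and 20 CPM at their highest, 8 lay below 1 and had UMIs, and Slc26a5 (prestin), the motor protein of cochlear hair cells, had no UMI in any kept cell. A count of 0 over all kept cells of a library allows up to 3 UMIs, a level of 0.0227 to 0.0241 CPM. Of the 26, 5 reached 20 CPM outside the nephron. The scaffold Slc9a3r2 (NHERF2) stood at 781, 765 and 868 CPM in endothelium-like cells and at most 17.5 CPM in the mean of a nephron class. Slc12a4 (KCC1) stood at 44.9, 52.8 and 52.7 CPM in endothelium-like cells, Slc26a11 at 52.5, 60.6 and 30.9 in granulocyte-like cells, Slc12a9 at 14.8, 28.1 and 18.5 in macrophage-like cells and Slc9a9 (NHE9) at 22, 39.2 and 15.2 in natural killer-like cells. The antisense transcript Slc13a2os was highest in injured proximal cells, at 3.91, 5.2 and 5.53 CPM. How the counting used strand is not given in the sources used here, so whether reads of Slc13a2 were counted for it is not known. Slc13a2 itself was highest in S3-like cells.

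UMIs of kidney transporters also lay in lymphocyte-like cells, which should lack those of the nephron segments, as free RNA in the suspension can give. Slc34a1 stood at 643, 727.5 and 759 CPM and Slc4a4 at 239.9, 256 and 201 in T and B lymphocyte-like cells together. In S1/S2-like and S3-like cells both were several-fold above these. In the proximal class of open segment Slc34a1 (1004, 1213 and 1101 CPM) and Slc4a4 (315, 307 and 218 CPM) lay much nearer to the lymphocyte level, while the TAL-like and more distal classes held 65 to 137 CPM of Slc34a1, below the lymphocyte level. Slc12a1 stood in lymphocytes at 34.5, 42.9 and 14.6 CPM and Slc12a3 at 16, 19.7 and 11.9, both higher in the Aoah-/- libraries. Slc26a4 and Slc4a1 stood there at 1.3, 0.628 and 0.299 CPM and at 0.696, 0.837 and 0.897 CPM. The lymphocyte level is given beside low values below as a comparison. It is not the level of free RNA in a nephron class, since the distal classes held less Slc34a1 than lymphocytes did, and how much of a low nephron level was free RNA was not tested. For Slc4a7 and Slc4a1ap the highest nephron class was itself below the lymphocyte level.

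**Figure D3:**
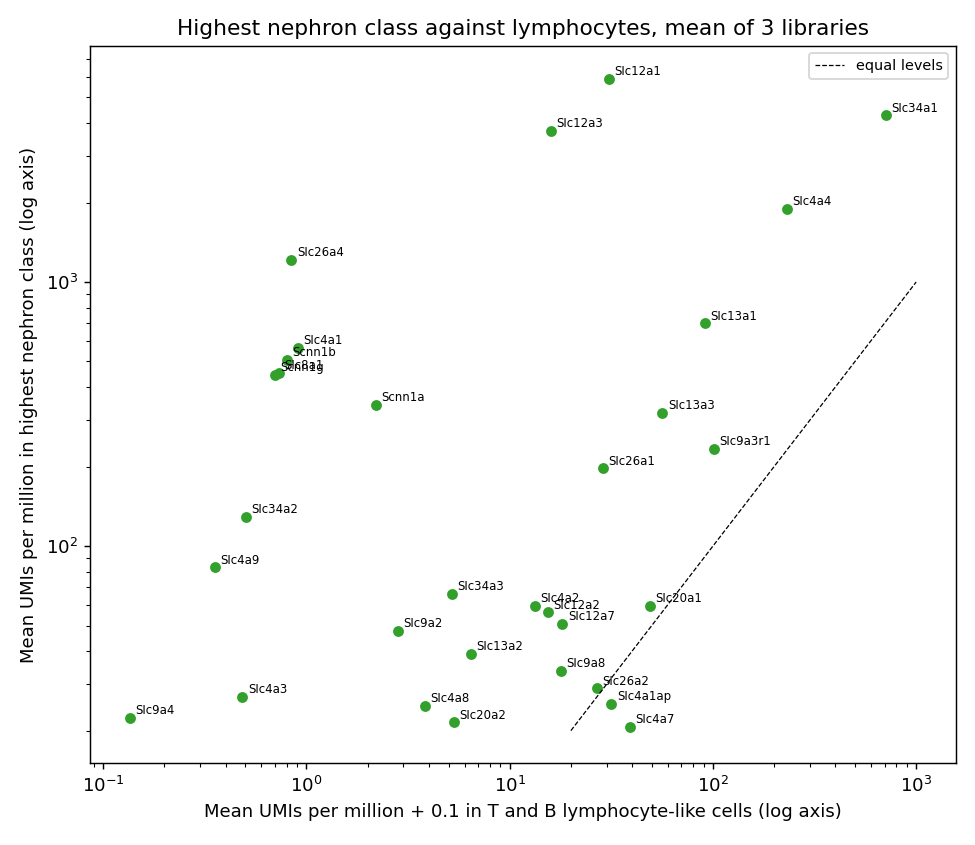
Level of 31 of the 33 members, each in its highest nephron class against its level in T and B lymphocyte-like cells, both as means of 3 libraries in CPM on log axes. Slc34a1 and Slc4a4 have the highest lymphocyte levels, at 710.1 and 232 CPM, and Slc4a7 and Slc4a1ap lie below the line of equal levels.

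In injured proximal cells both NaPi-II phosphate carriers, the dicarboxylate carrier Slc13a3 and the basolateral sulfate carrier Slc26a1 were lower than in S1/S2-like cells. Slc34a1 stood in the injured class at 1582, 1421 and 1356 CPM, 2.5- to 3.21-fold below S1/S2-like cells. Slc34a3 stood at 12.1, 11.2 and 3.08 CPM, 4.88- to 21.3-fold lower, but above its S3-like level in every library. Lymphocyte-like cells held 6.61, 5.44 and 3.29 CPM of Slc34a3, above the injured level in the WT library. The injured class was given no segment. Slc13a3 stood at 70, 56.2 and 64 CPM, 3.81- to 4.13-fold lower, where lymphocyte-like cells held 53.2, 55.3 and 60.5 CPM. Slc26a1 stood at 89.6, 66 and 50.4 CPM, 2.2- to 3.7-fold lower. These 4 members of 18 were lower by the 2-fold rule, against 3.23% of all genes, and 0 were higher, against 16.2%. Slc13a1, at 669, 525 and 506 CPM and above its S3-like level in every library, and Slc4a4, at 1007, 934 and 848 CPM, did not pass the rule. Slc4a4 was 1.85- to 2.26-fold below S1/S2-like cells and so missed it in 1 library. The median log2 ratio was -0.35 over the members and 0.40 over all genes tested. With the clusters cut at resolution 2 in place of 1, 1 member was lower.

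Against S3-like cells, Slc34a1 (2.19- to 2.78-fold) and Slc13a3 (4.59- to 5.48-fold) were again lower, 2 of 17 members against 4.57% of all genes. Slc20a1 and Slc4a2 were higher, 2 of 17 against 20.3%. Slc20a1 stood at 63.4, 69.7 and 44.3 CPM in injured cells and at 23, 24.7 and 18.5 in S3-like cells, 2.39- to 2.82-fold apart, but lymphocyte-like cells held 49.9, 54.9 and 41.8 CPM. Slc4a2 stood at 24.6, 25 and 25.8 CPM in injured and at 10.8, 10.3 and 10.1 in S3-like cells. With a mitochondrial limit of 20%, 0 members were higher. With the lymphocyte level subtracted 0 were higher too, but Slc20a1 and Slc4a2 then fell below the 20 CPM that the rule needs. That count therefore cannot show whether their difference remained. Without the WT library, where fewer libraries had to agree, 4 members were lower than in S3-like cells. The injured class held 204, 364 and 126 cells, and cells with a leukocyte UMI made up 60.8%, 65.7% and 29.4% of it. Without those cells 1 member was higher than in S1/S2-like cells.

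**Figure D4:**
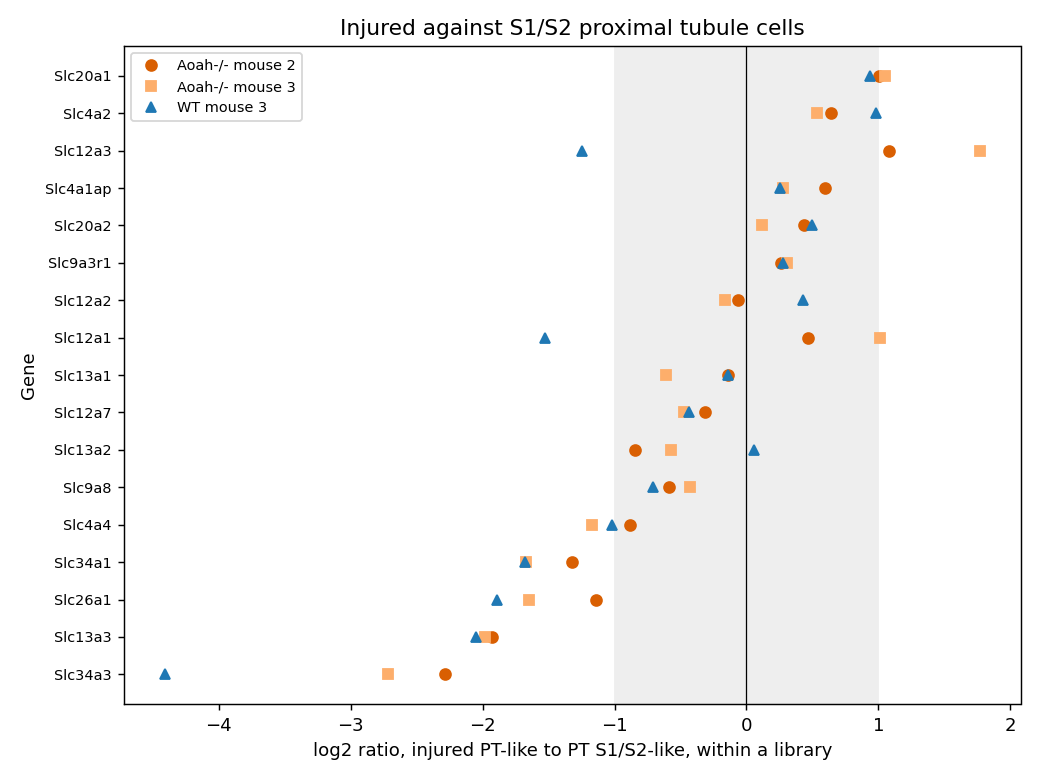
Log2 ratio of the level in injured proximal cells to that in S1/S2-like cells for 17 of the 18 members tested, 1 point per library, with a grey band at 2-fold. Slc34a3, Slc13a3, Slc26a1 and Slc34a1 lie below the band in all 3 libraries, and Slc12a1 and Slc12a3 lie on opposite sides of 0 in the WT and Aoah-/- libraries.

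In the injury-led cells with TAL markers, NKCC2 was lower and NaPi-IIb was higher than in TAL-like cells. Slc12a1 stood at 849.8, 824 and 1302 CPM, 4.15- to 7.62-fold lower. Slc34a2 (NaPi-IIb), the phosphate carrier known from gut and lung, stood at 114, 100.7 and 174 CPM, against 25.3, 21 and 19.5 in TAL-like cells. It was 4.48- to 8.93-fold higher, and its lymphocyte level was below 1 CPM. Slc12a2 (NKCC1) was 3.12- to 3.47-fold higher, at 55.3, 60.7 and 52.5 against 17.7, 18.1 and 15.1 CPM. Slc9a2 was 3.39- to 3.87-fold lower, at 9.99, 8.89 and 7.88 CPM. Of 13 members, 2 were lower against 3.76% of all genes and 2 were higher against 9.76%. With no mitochondrial limit 5 were higher and 1 was lower.

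In the injury-led cells with CNT and PC markers, Slc8a1 and Slc12a3 were lower than in CNT-like cells. The ENaC subunits were lower than in PC-like cells, and Slc12a1 and Slc12a2 were higher than in both. Against all other cells this class scored best of the segment lists on the CNT list, which summed there to 2908, 3265 and 2475 CPM. The PC list summed to 797, 663 and 1237 CPM, the DCT list to 1245, 1343 and 1477 and the TAL list to 2320, 3734 and 2347. Slc8a1 stood at 31.7, 14.9 and 31 CPM, 14.7- to 28-fold below CNT-like cells. Slc12a3 stood at 656, 592 and 594 CPM, 3.72- to 4.34-fold below CNT-like and 5.8- to 27.5-fold above PC-like cells. All 3 ENaC subunits were lower than in PC-like cells: Scnn1a at 69.2, 82.6 and 76.5 CPM (3.52- to 5.14-fold), Scnn1b at 105, 85.7 and 168 (3.33- to 5.71-fold) and Scnn1g at 66.9, 37.5 and 103 (4.91- to 10.9-fold). Slc12a1 stood at 147, 424 and 166 CPM, 5.96- to 27.7-fold above PC-like cells, so the class held UMIs of TAL, DCT and PC carriers side by side. Slc12a2 stood at 50, 48.6 and 49.3 CPM, 3.75- to 5.15-fold above PC-like cells.

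Against CNT-like cells 4 of 17 members were lower (Scnn1a, Slc12a3, Slc8a1 and Slc9a2) against 2.77% of all genes, and 4 were higher (Slc12a1, Slc12a2, Slc20a1 and Slc4a4) against 19.4%. Against PC-like cells 5 of 20 were lower (the ENaC subunits, Slc8a1 and Slc9a4) against 3.33% of all genes, and 4 were higher (Slc12a1, Slc12a2, Slc12a3 and Slc20a1) against 6.55%. Slc20a1, at 20.1, 20.7 and 19.5 CPM, lay below its lymphocyte level, and so did Slc4a4, at 81.2, 60 and 51.5. With at least 500 genes per cell, 1 member was higher than in CNT-like cells.

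The proximal class of open segment had low levels of almost every carrier. Of 13 members, 12 were lower than in S1/S2-like cells, against 19.6% of all genes, and 0 were higher, against 18.9%. Slc34a1 stood at 1004, 1213 and 1101 CPM, 3.74- to 3.95-fold lower, and Slc4a4 at 315, 307 and 218, 5.9- to 7.9-fold lower. Slc34a3, at 2.37, 2.12 and 3 CPM, was 21.8- to 34.5-fold lower, and Slc20a1, at 3.56, 3.4 and 1.5 CPM, was 8.87- to 15.4-fold lower. Slc9a3r1 was the member that was not lower. The median log2 ratio was -2.24 over the members and 0.15 over all genes tested. Median mitochondrial shares in this class were 4.13%, 3.71% and 4.17%, against 23.7%, 25% and 23.1% in S1/S2-like cells, and their part in these differences was not tested.

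Between genotypes, most transporters lay within 1.5-fold in the class where each was highest. The ratio of the mean of the 2 Aoah-/- libraries to the WT library ran over the 33 members from a log2 of -0.70 to 0.53, with a median of 0.02, and 18 of 33 were higher in Aoah-/-. The 5 members past 1000 CPM differed by at most 0.20. In 28 of 33 both Aoah-/- libraries were within 1.5-fold of the WT library. The share of all genes within this limit was not counted, so this count does not set the members apart from other genes. With 1 WT library these are descriptions, and a ratio within 1.5-fold does not show equal levels. Slc20a1 in IC-A-like cells (62.4, 69.7 and 45.8 CPM) had a log2 ratio of 0.53 ± 0.11 (SD of the 2 Aoah-/- libraries) and was past 1.5-fold in Aoah-/- mouse 3 alone. Slc13a1 in S1/S2-like cells had 0.47 ± 0.08 and was inside 1.5-fold in both. Scnn1a in PC-like cells, just past 1.5-fold in Aoah-/- mouse 3, had 0.50 ± 0.13, whereas its partners Scnn1b and Scnn1g had -0.22 ± 0.04 and -0.28 ± 0.03.

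**Figure D5:**
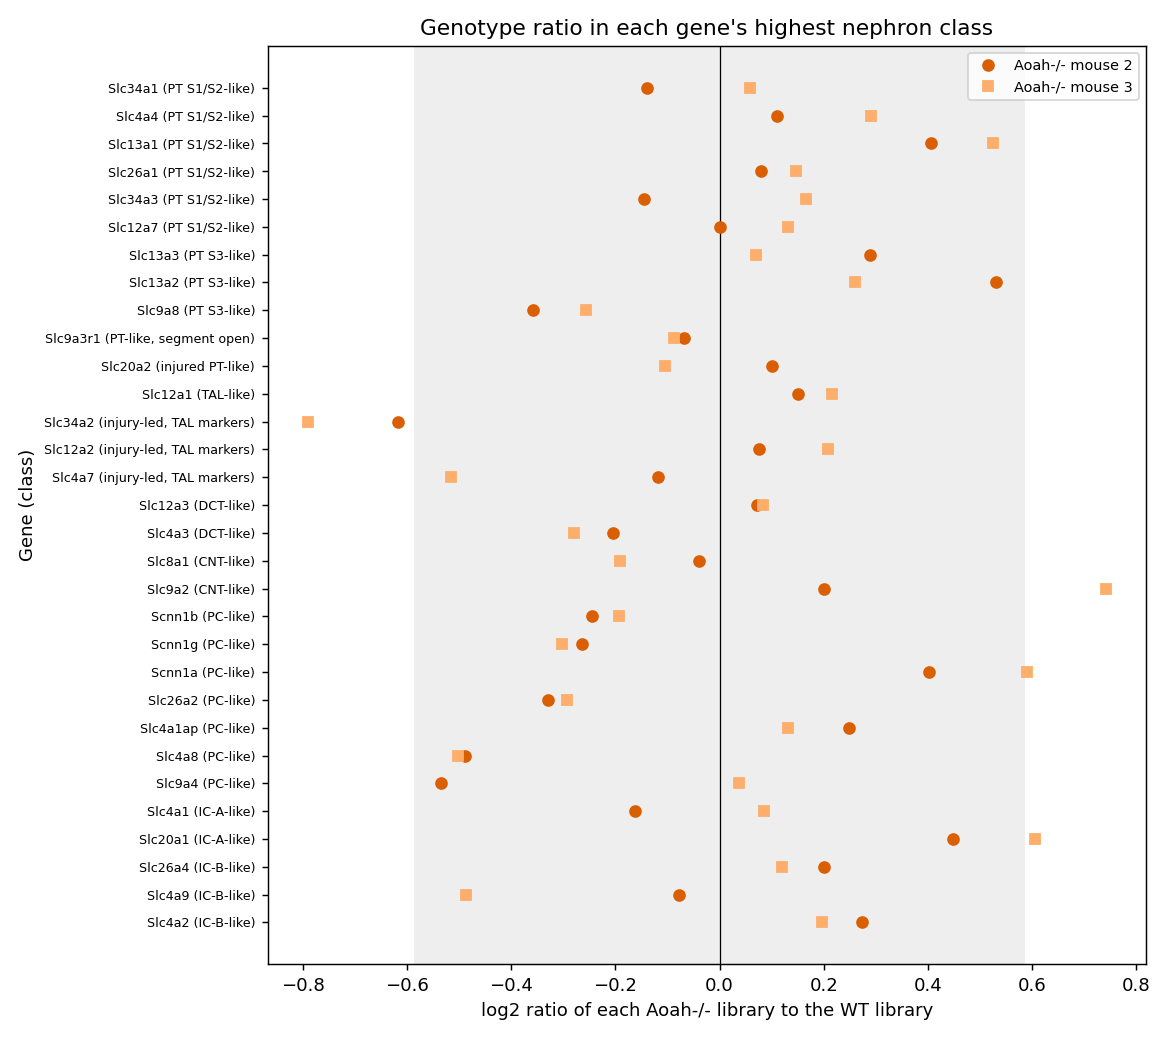
Log2 ratio of each Aoah-/- library to the WT library for 31 of the 33 members in the nephron class where each was highest, with a grey band at 1.5-fold. Slc34a2 is the only member drawn with both points outside the band on the same side, at a log2 ratio of the mean of -0.70.

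A genotype difference was counted where both Aoah-/- libraries lay at least 1.5-fold from the WT library the same way, with a group mean of at least 20 CPM. Over the 12 nephron classes 170 pairs of member and class were tested. Higher in Aoah-/- were 11 (6.47%), against 1.9% of all genes over the same classes, and lower were 9 (5.29%), against 1.89%. Of these 20, 12 were of Slc12a1 or Slc12a3, and 11 of the 12 lay outside the TAL classes for Slc12a1 or the DCT-like and CNT-like classes for Slc12a3. In S1/S2-like cells 0 of 13 members passed this rule, where 1.14% of all genes were higher and 1.33% lower. In S3-like cells 0 of 12 passed, where 0.891% of all genes were higher and 1.4% lower. With so few members, 0 is near these shares and does not show that the proximal carriers were unchanged.

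Slc12a1 in injured proximal cells stood at 30.1, 30.7 and 3.08 CPM, from 77, 118 and 5 UMIs, and Slc12a3 there at 26.2, 35.9 and 2.46 CPM, from 67, 138 and 4 UMIs. The Slc12a1 levels lay below those in lymphocyte-like cells of the same libraries (34.5, 42.9 and 14.6 CPM). Those of Slc12a3 lay above the lymphocyte level in the Aoah-/- libraries (16 and 19.7 CPM) and below it in the WT library. Slc12a1 was also higher in DCT-like cells, at 33.1, 26.3 and 12.1 CPM, again below the lymphocyte level, in CNT-like cells, at 17.2, 50.5 and 5.99, and in IC-A-like cells, at 40.5, 91.1 and 2.77. In CNT-like cells its direction turned when cells with under 500 genes were left out. TAL-like cells made up 4.39%, 2.8% and 2.52% of kept cells. These shares leave out the unnamed distal clusters, which held 353, 2163 and 202 cells. The largest of those, with 191, 1383 and 158 cells, scored best of the segment lists on the TAL list. The TAL-like share and the lymphocyte level of Slc12a1 were both lowest in the WT library, and their part in these differences was not tested.

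Slc12a3 was higher in Aoah-/- in TAL-like cells, at 25.3, 30.9 and 13.1 CPM, in the injury-led TAL class, at 21.4, 27 and 7, and in PC-like cells, at 59.4, 102 and 21.6. It was lower in IC-A-like cells, at 95, 116 and 202 CPM, and in IC-B-like cells, at 30, 8.39 and 74.6. The direction turned in TAL-like, injury-led TAL and IC-B-like cells when the 10% of cells with the highest doublet score were removed, and in PC-like cells with a mitochondrial limit of 20%. With 30 principal components it turned in both TAL classes. Slc12a1 was lower in PC-like cells, at 13.2, 15.3 and 27.8 CPM, where both a limit of 20% and at least 500 genes turned the direction. The calls of these 2 genes outside their own segments thus went both ways, more often higher than lower in Aoah-/-.

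The remaining calls were of Slc12a1 in a TAL class and of other members. Only Slc34a2 was called in the class where it was highest. In the injury-led TAL class, Slc34a2 (114, 100.7 and 174 CPM, log2 ratio -0.70 ± 0.12) and Slc12a1 (849.8, 824 and 1302 CPM, -0.64 ± 0.03) were lower in Aoah-/-, and so was Slc4a8 (13.6, 12.4 and 27.1 CPM, -1.06 ± 0.09). That both Aoah-/- libraries lay below the WT library for all 3 follows from the rule. With no mitochondrial limit Slc34a2 turned to 0.22 and Slc12a1 to 0.57. In the injury-led CNT/PC class Scnn1b (105, 85.7 and 168 CPM, -0.81 ± 0.21) and Scnn1g (66.9, 37.5 and 103 CPM, -0.98 ± 0.59) were lower, while Scnn1a there was at 69.2, 82.6 and 76.5 CPM and did not pass. The list of PC markers also summed highest in the WT library of this class, at 797, 663 and 1237 CPM. So did the TAL list in the injury-led TAL class, at 8177, 7379 and 10490 CPM. The part of segment make-up in the calls of these 2 classes was not tested. Slc9a2 in PC-like cells was higher, at 29.2, 30.6 and 10 CPM from 53, 52 and 13 UMIs. Slc8a1 in IC-A-like cells was lower, at 22.4, 18.3 and 44.9 CPM. The list of CNT markers also summed highest in the WT library of this class, at 5885, 6936 and 9995 CPM. The part of segment make-up in this call and in that of Slc12a3 in IC-A-like cells was not tested. Slc26a1 in the proximal class of open segment was higher, at 40.1, 44.2 and 22.7 CPM. Lymphocyte-like cells held 29.1, 29.7 and 26.9 CPM of Slc26a1, above its level in this class in the WT library. Slc4a4 in CNT-like cells, at 34.4, 23.1 and 10.5 CPM, was higher and far below its lymphocyte level.

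Of these 20 differences, edgeR called 10 and DESeq2 1, both on the assumption that the WT library varies as the Aoah-/- libraries do. edgeR's quasi-likelihood test with Benjamini-Hochberg adjustment over all genes of a class called 18 of 443 member and class pairs (4.06%), against 1.43% of all pairs of gene and class. Of these, 13 were higher, against 0.735% of all, and 5 were lower, against 0.694%, while 96 had an unadjusted p under 0.05. DESeq2 called 4 (1.35%) of the 297 pairs to which it gave an adjusted p, against 0.499% of all: Slc12a1 in S1/S2-like (adjusted p = 0.0227), S3-like (1.08e-05) and IC-A-like cells (0.0386), and Slc13a1 in S1/S2-like cells (0.00675). All 4 were higher in Aoah-/-, where 0.247% of all were, and 0 were lower, where 0.251% were. The Slc12a1 levels behind the proximal calls, 21.8, 15.2 and 8.87 CPM in S1/S2-like and 15.7, 15.1 and 4.62 in S3-like cells, were below those in lymphocytes. For Slc13a1 in S1/S2-like cells edgeR gave an adjusted p of 0.0506. By edgeR, Slc12a1 in the injury-led TAL class had an adjusted p of 0.00221.

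The 25 partners are regulators, pumps and channels on which these transporters depend. Among them, the kinases Wnk1 and Wnk4, which act on NKCC2 and NCC, were highest in CNT-like (Wnk1, 3503, 3928 and 3733 CPM) and DCT-like cells (Wnk4, 392.5, 453.5 and 426 CPM). Klotho (Kl), the co-receptor for the phosphate-lowering hormone FGF23, stood at 2602, 3351 and 3593 CPM in CNT-like and at 250.2, 310.4 and 295 in S1/S2-like cells. The parathyroid hormone receptor Pth1r stood at 481, 577 and 561 CPM in CNT-like and at 274, 299 and 281 in S1/S2-like cells. Pdzk1, a scaffold of brush border carriers, stood at 618, 625 and 586 CPM in the proximal class of open segment and at 459, 509.8 and 492 in S1/S2-like cells, so like Slc9a3r1 it was not lower there. The sodium pump subunit Atp1b1 stood at 4875, 5591 and 4834 CPM in CNT-like and at 5059, 5370 and 4516 in DCT-like cells, which overlapped. Car2, a carbonic anhydrase, stood at 2577, 3269 and 2527 CPM in IC-B-like cells. Others past 100 CPM included Kcnj16 (highest in CNT-like cells), Kcnj1, Kcnj10 and Stk39 (DCT-like), Bsnd and Cul3 (IC-B-like), Nedd4l (IC-A-like), Prss8 (S1/S2-like), Car4 (S3-like) and Fxyd2 (the class of open segment).

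Sgk1, the kinase that raises ENaC and NCC activity, was lower in the Aoah-/- libraries in all 4 proximal classes. It stood at 73.6, 58.5 and 143 CPM in S1/S2-like, 35.9, 32.9 and 90.4 in S3-like, 36.8, 42.4 and 71.3 in injured cells and 7.83, 21.7 and 45.8 in the class of open segment. In PC-like cells, where it was highest, it stood at 357, 355 and 289 CPM. The S1/S2-like and S3-like classes differed in their clusters between libraries. The cluster led by Fosb, Jun and Dusp1 held more of the S1/S2-like class in the WT library, as given above, and in the S3-like class a cluster with Jun and Dusp1 among its leading genes held 814, 750 and 1552 of 2034, 1596 and 3057 cells. The part of these clusters in the Sgk1 difference was not tested. edgeR gave adjusted p-values of 0.036 in S1/S2-like and 6e-06 in S3-like cells. Over the 235 pairs of partner and class, 3 were higher (Wnk1 in the class of open segment, Fgfr1 in the injury-led TAL class and Car2 in DCT-like cells), against 1.9% of all genes, and 14 were lower, against 1.89%. Beside Sgk1 the lower ones included Atp1b1, Fxyd2 and Pth1r in the injury-led TAL class, Fgfr1 in IC-B-like cells, and Fgfr1, Kcnj1, Kcnj10, Kl and Pth1r in IC-A-like cells. Kl stood there at 174, 195 and 421 CPM, so Kl, Slc12a3 and Slc8a1, all highest in DCT-like or CNT-like cells, were higher in IC-A-like cells of the WT mouse.

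Against TAL-like cells 9 of 22 partners were lower in the injury-led TAL class (among them Bsnd, Car4, Kcnj1, Kcnj10, Kl, Wnk1 and Wnk4), against 3.76% of all genes, and 1 was higher, against 9.76%. The higher one was Sgk1, at 87.4, 55.6 and 64.8 against 7.26, 13.6 and 12 CPM. Kcnj1 (ROMK), which recycles potassium for NKCC2, stood at 100.6, 117 and 148 CPM against 408, 445 and 403. The kinases Stk39 (SPAK), at 67.8, 74.7 and 87.5 against 88.2, 102 and 121 CPM, and Oxsr1 (OSR1), at 32.1, 36.9 and 29.8 against 24.5, 26 and 30.7 CPM, and the channel Kcnj16 did not pass. In injured proximal cells Kl was lower than in S1/S2-like cells, at 121, 129 and 106 CPM, and Fgfr1, its partner receptor, was higher, at 34.4, 37.2 and 36.3 against 17.2, 15.7 and 12.4 CPM.

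Genes whose pattern was most like that of the 4 segment-marking transporters were ranked by the Pearson correlation of log2(CPM + 10) over 36 values (12 classes in 3 libraries) among 8413 genes of at least 20 CPM in a class. The values share libraries and the classes came from clustering, so the coefficients are descriptions. Slc34a1 was most like Acsm2 (r = 0.996), Kcnj15, Cyp2j5 and Tmem174 (0.993). Slc12a1 was most like Thsd4 (0.961), Irx2, Irx1, Egfl6 and Defb42 (0.950). Slc12a3 was most like Sall3 (0.981), Klhl3 (0.926), Ltc4s, Trpm6 and Tdrd3, and Slc26a4 was most like Insrr (0.994), Hmx2, Chl1, Aldh1l2 and Tmem163 (0.987). Acsm2, Trpm6, Insrr and Hmx2 were among the markers used to name classes.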

How the data were processed

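Kidneys were digested with collagenase IV and DNase I, passed through a 40 µm strainer and run as 1 droplet 3′ library per mouse. The deposited values are raw UMI counts per gene and barcode. Per the submitters' processing notes the authors used Cell Ranger 3.1.0, STAR, Seurat 4.2.0 and mm10, while the headers of the deposited count matrices name Cell Ranger 6.1.2. Whether counting used strand is not given in the sources used here. A barcode was dropped when it had under 200 genes or more than 50% of its UMIs from mitochondrial genes, which left 78.9% to 83.7% per library. Doublets stayed in, since the caller marked 0 cells in Aoah-/- mouse 3.

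Cells were clustered with scanpy 1.11.5 (2000 variable genes without the members, 50 components, Leiden resolution 1) and named by fixed markers. The rule for naming clusters was adjusted after their leading genes were seen, and the members and lists were chosen with earlier results of these data known. Counts of all cells that shared a class and a library were added up and scaled to counts-per-million (CPM). The genotype comparison had 1 WT library and so no main test. It used a 1.5-fold limit in both Aoah-/- libraries, with SDs over those 2. edgeR 4.0.16 and DESeq2 1.42.0, tested on simulated data, were alternatives with 1 residual degree of freedom. All genes tested in the same classes gave the background. Values are printed for textbook members, for every other member of at least 20 CPM in a nephron class, for partners past the limit or at 100 CPM or more, and for the 5 genes most alike. Precision was set by UMIs per class and library, and intervals cover counting error only. A few genes are counted but not reported by name here.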

Additional observations from a re-analysis of the deposited data

Results flagged for a closer look

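In 13 cases a member's ratio between an injury-led class and its reference class lay on one side of 0 in the WT library and on the other in both Aoah-/- libraries. Members tested were 18 for injured against S1/S2-like cells, 17 against S3-like cells and 13 for the injury-led TAL class. For the injury-led CNT/PC class they were 17 against CNT-like and 20 against PC-like cells. A ratio needed more than 3 UMIs in each class and library but had no least size. The share of all genes that split this way was not counted. With 1 WT library none of these differences between genotypes was tested. Log2 ratios are given as WT, then Aoah-/- mouse 2 and mouse 3.

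Slc12a1 and Slc12a3 split in injured proximal cells. Against S1/S2-like cells Slc12a1 stood at -1.53, against 0.47 and 1.01, and Slc12a3 at -1.25, against 1.08 and 1.77. Against S3-like cells Slc12a1 stood at -0.59, against 0.94 and 1.03, and Slc12a3 at -1.28, against 1.69 and 2.15. The WT values rest on 5 and 4 UMIs in the injured class.

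Other members split as well. Slc13a2 stood at 0.06, against -0.85 and -0.57, and Slc12a2 at 0.43, against -0.06 and -0.16, between injured and S1/S2-like cells. Against S3-like cells Slc12a2 stood at 0.40, against -0.01 and -0.13, and Slc9a3r1 at -0.05, against 0.01 and 0.06. Slc12a7 stood at 0.32, against -0.46 and -0.57, between the injury-led TAL and TAL-like classes. Between the injury-led CNT/PC and CNT-like classes Scnn1b stood at 0.14, against -0.40 and -0.41. Between the injury-led CNT/PC and PC-like classes Slc9a2 stood at 0.55, against -1.57 and -1.47, Slc4a3 at 0.61, against -0.25 and -0.56, and Slc9a3r1 at 0.22, against -0.18 and -0.33.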

How the results depend on the processing

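No paired analysis was possible because there was 1 WT mouse and the labels record no pairing. Replicate number 3, which both groups share, is not stated to mark a pair. The alternatives for the injury-led classes, the runs with no mitochondrial limit and the levels with a library left out or the lymphocyte level subtracted were chosen after seeing the data. The 23 members with the same highest class in every library became 25 to 28 with a library left out. Wherever a library is left out, here and below, fewer libraries have to agree, so the rule is looser and counts tend to rise. Pairs higher in Aoah-/- (11) became 20 with the mean of each cell's own CPM, 6 with the lymphocyte level subtracted, 2 at a least level of 50 CPM, 41 at 5 CPM, 4 with DESeq2, and 23 without either Aoah-/- mouse. Pairs lower (9) became 5 with at least 500 genes, 17 at 5 CPM, 3 at 2-fold, 5 with edgeR, 0 with DESeq2 (96 pairs had an unadjusted edgeR p under 0.05), 14 without Aoah-/- mouse 2 and 15 without mouse 3. The number of pairs tested changes with the least level and with the classes that have a value. Except for edgeR and DESeq2, the share of all genes was not counted under these alternatives, nor under those of the injury-led classes below. A changed count is therefore not by itself a changed share of the members. Of 344 ratios of the called pairs under alternatives, 12 turned. With a mitochondrial limit of 20% Slc12a1 in PC-like cells was 1.07 and Slc12a3 -0.25. With at least 500 genes Slc12a1 was 1.21 in PC-like and -0.20 in CNT-like cells. Without the highest doublet scores Slc12a3 was 2.27 in IC-B-like, -0.19 in TAL-like and -0.51 in injury-led TAL cells. With 30 components it was -0.55 in TAL-like and -0.82 in injury-led TAL cells. With no mitochondrial limit the injury-led TAL ratios were 0.57 for Slc12a1, -0.66 for Slc12a3 and 0.22 for Slc34a2. Against S1/S2-like cells 0 members were higher in injured cells, and 1 was with no mitochondrial limit, at least 500 genes, doublet scores or leukocyte UMIs left out, or 30 components. It was 0 to 2 with a library left out, 2 without the WT library. The 4 lower became 1 at resolution 2, and 4 to 5 with a library left out. Against S3-like cells the 2 higher became 0 at 20% and 1 with at least 500 genes or without mitochondrial genes in the total. They became 0 with subtraction, where both fell below 20 CPM and could not be counted. With a library left out they were 2 to 3. The 2 lower became 1 at resolution 2 or 30 components, and 2 to 4 with a library left out. With no mitochondrial limit the injury-led TAL class had 5 higher and 1 lower. In the injury-led CNT/PC class the 4 higher than CNT-like became 1 with at least 500 genes and 2 with doublet scores, resolution 2, mitochondrial genes left out or subtraction, and the 4 lower became 2 with per-cell means. The 4 higher than PC-like became 1 at 20% and 2 with at least 500 genes, doublet scores or resolution 2. No value could be had for CNT-like and IC-B-like cells at 20% or without leukocyte UMIs, for CNT-like cells with 30 components, for the proximal class of open segment without the highest doublet scores, or for the injury-led CNT/PC class with no mitochondrial limit, and DESeq2 gave no adjusted p for 5 of the 20 pairs. The cause of these changes was not tested. Low members such as Slc9a3 and Slc26a7 are limited by their UMIs.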

Other observations

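Slc26a3 (DRA), the chloride and bicarbonate exchanger known from colon, lay below 1 CPM in every nephron class. In the WT library it had 210 UMIs, 118.2 CPM, in 150 cells of a cluster without a name. That cluster was led by Dcn, Igfbp6, C3, Slpi, Rarres2, Aebp1, Serping1 and Upk3b. All but 1 of its 151 cells were of the WT library, so no genotype comparison can be made there.

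Slc12a2 (NKCC1) was most variable outside the nephron. It stood at 128, 63.8 and 17.7 CPM in fibroblast-like cells and at 42.8, 74.1 and 178 in urothelium-like cells, in the order Aoah-/- mouse 2, Aoah-/- mouse 3, WT. In endothelium-like cells it stood at 67.9, 71.9 and 69.6 CPM. Slc20a1 stood at 135, 80.7 and 88.5 CPM in granulocyte-like cells, above every nephron class. These values were chosen after they were seen and were not tested.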
